A study of Mus musculus with 2 samples.

Results

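Sensory neurons of the cranial ganglia send their axons into the embryonic face, and the genes described here mark such neurons or neurons in general. The list held 53 symbols for genes of the neuronal cytoskeleton, RNA-binding proteins, synaptic proteins, transcription factors, ion channels, neuropeptides and adhesion molecules, each taken by name. Drgx and Prrxl1 are symbols of the same gene, so the list stood for 52 genes, and all 52 were found among the 43346 mouse gene IDs of the tables. RNA came from the facial prominence of B6NCrl mouse embryos at day 12.5 of gestation. There were 2 libraries of total RNA in 1 group, with no treatment, no mutant and no second tissue. Replicate 1 was a pool of 120 embryos and replicate 2 a pool of 88, each of mixed sex. Each library was made from 10 ng of RNA longer than 200 nucleotides, with ERCC spike-in RNAs added. The labels do not say whether ganglia were dissected with the tissue or left behind, nor whether the 2 pools were collected on separate days.

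Most sensory neurons of the face sit in the trigeminal ganglion and come from both neural crest and placode. The proneural factors Neurog1 and Neurog2 start neurogenesis in these precursors, and Pou4f1 and Isl1 then hold the sensory programme in the newborn neuron. Growing axons are filled with tubulins, neurofilaments and stathmins, while ion channels and peptides mark the kinds of sensory neuron, such as those for pain, touch and temperature.

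Levels are given in TPM, a unit that divides reads by gene length and scales every library to the same total, so that levels of different genes can be set side by side. Depth was 27890681 expected counts in replicate 1 and 39969716 in replicate 2, a ratio of 1.43. A count of 0 allows up to 3 counts. This limit and the intervals below cover error from counting alone, because reads with no molecular barcode can be copies of the same molecule. Genes of facial mesenchyme, which the label of the tissue calls for, were abundant: Msx1 had 336 TPM in replicate 1 and 325 TPM in replicate 2, and Prrx1 had 154 and 148 TPM. With 1 group of 2 libraries there is no test, and a difference between the libraries compares these 2 pools of RNA.

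The sensory neuron genes were well represented in this RNA. Of the 52 genes, 48 reached 1 TPM in both libraries, against 61.8% of 21461 protein-coding genes. The median over the 52 genes was 17.6 TPM in replicate 1 and 14.8 TPM in replicate 2, and the median of their mean level, 16.2 TPM, stood beside 5.22 TPM for all protein-coding genes. Mean levels ran from 0.195 TPM for Trpv1 to 2152 TPM for Stmn1. Of the 52 genes, 5 averaged at least 100 TPM, 28 lay from 10 to 100 TPM, 15 lay from 1 to 10 TPM and 4 lay below 1 TPM. The 5 highest were Stmn1, Tubb3, Tubb2a, Uchl1 and Nefl, and among the transcription factors, channels and peptides Isl1 (41.4 TPM on average) and Isl2 (20.1 TPM) were highest. In bulk RNA, fewer neurons and less RNA per neuron cannot be told apart.

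**Figure D1:**
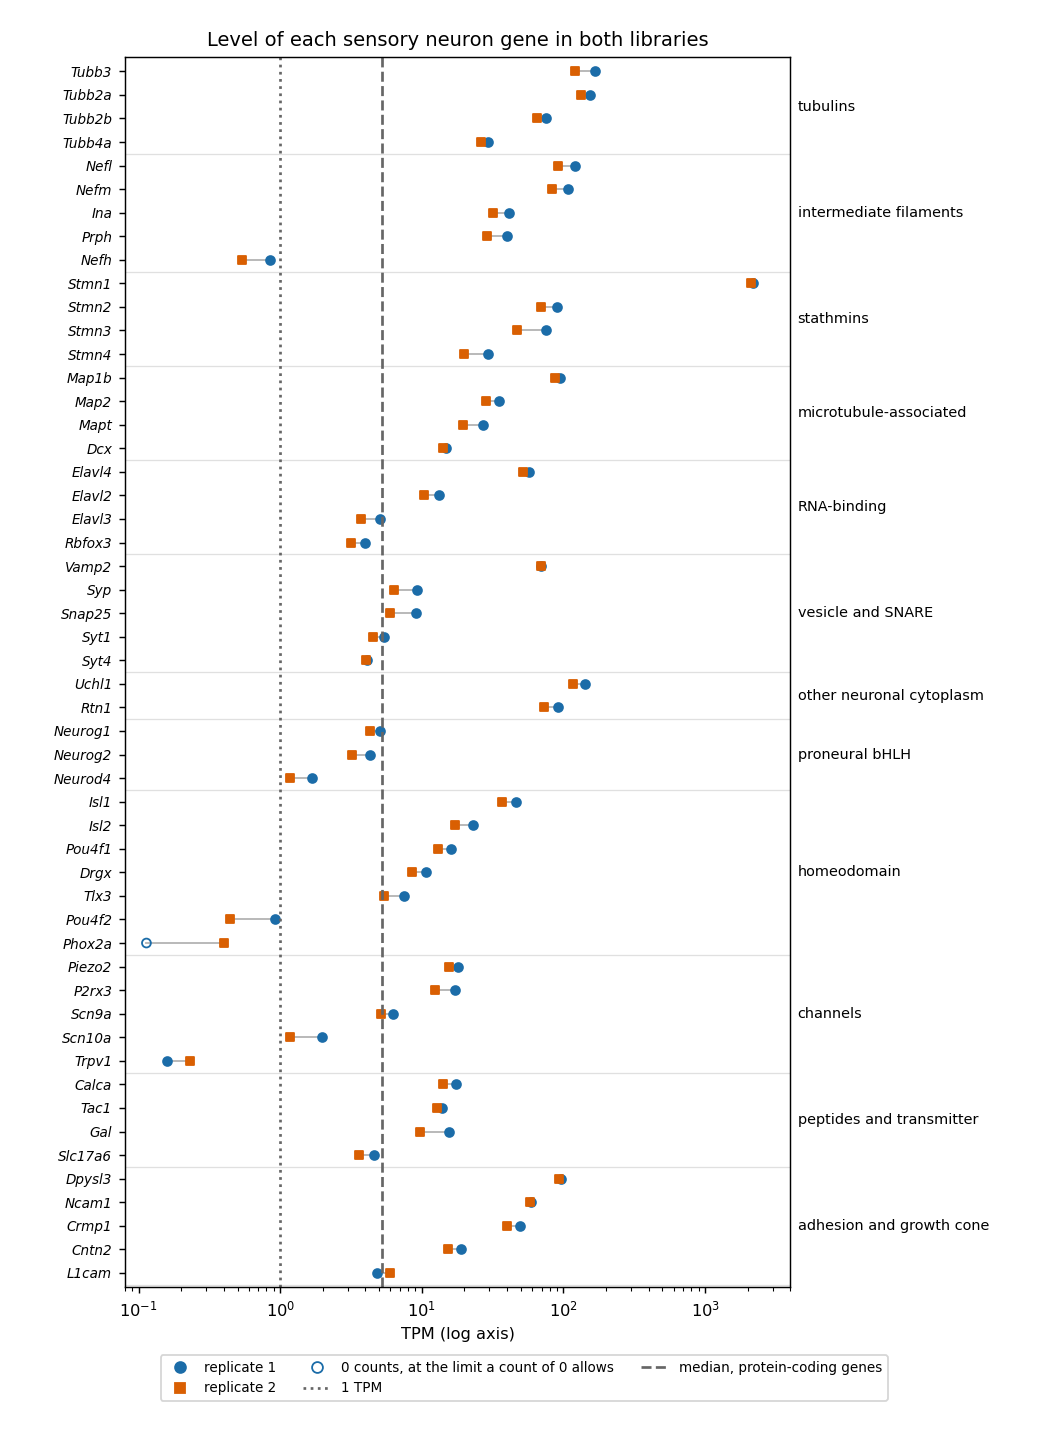
TPM (log axis) of each of the 52 genes in replicate 1 (circles) and replicate 2 (squares), grouped by role; the dotted line marks 1 TPM and the dashed line the median of protein-coding genes. The open circle is Phox2a, with 0 counts in replicate 1, drawn at the limit that a count of 0 allows; squares lie to the left of circles for 48 of the 52 genes.

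Among the tubulins, Tubb3, the beta-tubulin of neurons, had 167 TPM in replicate 1 and 121 TPM in replicate 2 (144 ± 31.9, SD, n = 2). Tubb2a and Tubb2b, which neurons use heavily but other embryonic cells also make, had 155 and 132 TPM and 75.8 and 65.3 TPM. These neighbours lie on chromosome 13 with 48740 bases between them, and 36.9% of the distinct 100-base windows of Tubb2a transcripts and 27.7% of those of Tubb2b occur in transcripts of other genes, mostly of each other. Their counts were therefore shared out in part, and their ratio is uncertain. Tubb4a, a tubulin of neurons and myelinating glia, was the lowest of the 4 at 29.4 and 26.3 TPM.

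Neurofilaments are the intermediate filaments of axons, and here the light and medium subunits were far above the heavy one. Nefl, the light subunit, had 120 and 91.8 TPM, and Nefm, the medium subunit, had 108 and 82.3 TPM. Nefh, the heavy subunit that large axons acquire as they mature, had 0.85 and 0.54 TPM from 58 and 52 expected counts. The ratio of Nefm to Nefh was 139 on average, with log2 ratios of 6.99 and 7.25 in the libraries, whereas Nefl and Nefm stood at a ratio of 1.11. Nefl (chr14:68083863-68089095, plus strand) and Nefm (chr14:68082590-68124846, minus strand) overlap in exons, and 30.8% of the 100-base windows of Nefl and 17.8% of those of Nefm lie in the other gene, so reads from that stretch could belong to either. Prph, a filament protein of peripheral neurons and a usual marker of small sensory and autonomic neurons, had 39.7 and 28.6 TPM. Ina, or internexin alpha, an early filament of newborn neurons, had 41.1 and 31.8 TPM and overlaps exons of Nt5c2, with 11.4% of its windows shared. Whether strand was kept is not stated in the labels, and reads of overlapping genes may have been mixed. Of the 52 genes, 38 shared no window with another gene and 9 shared 5% or more, which besides those named were Syp, Stmn1, Uchl1 and Syt4.

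The stathmins bind tubulin dimers. Stmn1 (chr4:134468320-134473843), which dividing cells make as well as neurons, had 2191 TPM in replicate 1 and 2114 TPM in replicate 2, the highest of the 52 genes. Stmn2, a growth cone protein made in neurons, had 89.9 and 68.9 TPM. Stmn3 followed at 75.7 and 47.2 TPM and Stmn4 at 29.6 and 19.9 TPM, both of them neuronal. Stmn1 exceeded Stmn2 by 27.4-fold, Stmn3 exceeded Stmn4 by 2.46-fold, and Stmn2 and Stmn3 were within 2-fold of each other.

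Among the proteins that bind microtubules, Map1b, an early axonal protein also found outside neurons, was highest at 94.3 and 86.9 TPM. Map2, the dendritic protein, had 34.9 and 28.4 TPM, and Mapt, which encodes tau, the axonal counterpart, had 27.1 and 19.7 TPM. Dcx, or doublecortin, a protein of migrating and growing neurons, had 14.8 and 14.2 TPM. Uchl1, a ubiquitin hydrolase very abundant in neurons, had 142 and 116 TPM, and Rtn1, a reticulon of the neuronal endoplasmic reticulum, had 90.8 and 72.8 TPM.

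The RNA-binding genes were unequal. Elavl4, the Hu protein HuD, had 57.0 and 52.1 TPM, Elavl2 (HuB) had 13.2 and 10.3 TPM and Elavl3 (HuC) had 5.06 and 3.74 TPM. Rbfox3, whose product is the NeuN antigen of mature neurons, had 3.97 and 3.14 TPM. Elavl4 exceeded Elavl3 by 12.5-fold and Rbfox3 by 15.4-fold. On coding transcripts alone these ratios were smaller, with log2 values for Elavl3 over Elavl4 of -2.66 in place of -3.65 and for Elavl4 over Rbfox3 of 2.96 in place of 3.95.

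Genes of synaptic vesicles and their fusion machinery had mean levels below 10 TPM except for Vamp2. Vamp2, a vesicle SNARE that non-neuronal cells also use, had 69.8 and 69.9 TPM. The membrane SNARE Snap25 had 9.11 and 5.97 TPM, the vesicle protein Syp (synaptophysin) 9.18 and 6.32 TPM, and the calcium sensor Syt1 5.45 and 4.51 TPM. Syt4, a synaptotagmin of growing neurites, had 4.09 and 4.04 TPM. Syt1 and Syt4 were within 2-fold of each other, at a ratio of 1.22.

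Among adhesion and growth cone genes, the broadly made Dpysl3 (96.0 and 93.2 TPM) and Ncam1 (59.2 and 57.8 TPM) hardly differed between the libraries. Crmp1, a collapsin response mediator of axon guidance, had 49.6 and 39.8 TPM. Cntn2, the axonal glycoprotein TAG-1, had 18.9 and 15.4 TPM. L1cam, a cell adhesion molecule of axon bundles, had 4.85 TPM in replicate 1 and 5.99 TPM in replicate 2, at 10.9-fold below Ncam1 on average.

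The proneural factors were low but present. Neurog1 had 5.06 and 4.29 TPM, Neurog2 had 4.28 and 3.19 TPM, and Neurod4, a factor of later precursors, had 1.69 and 1.18 TPM. Neurog1, which drives most trigeminal neurons, and Neurog2, which drives those of the geniculate and petrosal ganglia, differed by 1.26-fold, within 2-fold in each library.

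The 5 homeodomain factors of the sensory programme had gene levels above those of the proneural factors. Isl1 (chr13:116298281-116309689) had 46.0 and 36.9 TPM (41.4 ± 6.39, SD, n = 2), though it is also made in other embryonic cells, among them facial epithelium. Its relative Isl2, made in young sensory and motor neurons, had 23.1 and 17.1 TPM. Pou4f1 (chr14:104461676-104467999), which encodes Brn3a, had 16.1 and 13.1 TPM. Drgx, a factor of pain-sensing neurons and their central targets, had 10.8 and 8.52 TPM, and Tlx3, a selector of glutamatergic sensory fate, had 7.54 and 5.43 TPM. These 5 factors kept the same order in both libraries by gene level. On coding transcripts alone Pou4f1, at 5.36 and 4.21 TPM, was the lowest of the 5, and in replicate 2 it lay below Neurog1 (4.29 TPM).

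The remaining homeodomain genes were below 1 TPM in both libraries. Pou4f2, the Brn3b factor best known from retinal ganglion cells, had 0.92 and 0.44 TPM from 50 and 34 counts, which put Pou4f1 22.8-fold above it (log2 4.51, and 2.90 on coding transcripts alone). Phox2a, a factor of visceral sensory and autonomic neurons, had 0 counts in replicate 1 and 15 in replicate 2, or 0.40 TPM. Against the limit of 3 counts in replicate 1, worth 0.114 TPM, Phox2a was at least 3.52-fold higher in replicate 2 with its 15 counts taken as exact, and the counting interval of the log2 count ratio per depth began at 1.32. Its exons overlap those of Inppl1.

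Ion channels of somatosensory neurons had graded levels, and only Trpv1 was below 1 TPM. Piezo2, the touch channel, had 17.9 and 15.6 TPM, and P2rx3, an ATP-gated channel of pain-sensing neurons, had 17.1 and 12.4 TPM. On coding transcripts alone Piezo2, at 9.60 and 7.56 TPM, lay below P2rx3, at 14.6 and 10.7 TPM. Scn9a, the sodium channel Nav1.7, had 6.21 and 5.14 TPM, and Scn10a, the sodium channel Nav1.8 of mature pain neurons, had 1.96 and 1.17 TPM. Trpv1, the heat and capsaicin channel, had 0.16 and 0.23 TPM from 9 and 11 counts. P2rx3 exceeded Trpv1 by 75.8-fold and Scn9a exceeded Scn10a by 3.73-fold. P2rx3 overlaps Ssrp1 in exons, but no 100-base window of its transcripts was shared with another gene.

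Of the peptides, Calca, the calcitonin and CGRP gene, had 17.3 and 14.1 TPM from 265 and 308 counts. Tac1, the gene of substance P and neurokinin A, had 14.0 and 12.8 TPM. Gal, the galanin gene, had 15.5 and 9.68 TPM. Slc17a6, the vesicular glutamate transporter that loads the transmitter of sensory neurons, had 4.57 and 3.60 TPM. Calca and Tac1 were within 2-fold of each other at a ratio of 1.17, and Gal lay above Tac1 in replicate 1 and below it in replicate 2.

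Calca makes either calcitonin or the neuropeptide CGRP according to which exon follows the third. The sequences below are shown because the share of each form depends on them. Both lines are coding sequence of the minus strand of chromosome 7 on GRCm38, from GENCODE M21 transcripts. The lower-case bases are the last 20 of the shared exon, and the capitals are the first 40 of the exon that follows, at chr7:114633746-114633785 for calcitonin and chr7:114632560-114632599 for CGRP.
Calcitonin exon: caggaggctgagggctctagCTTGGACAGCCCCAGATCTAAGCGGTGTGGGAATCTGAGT
CGRP exon: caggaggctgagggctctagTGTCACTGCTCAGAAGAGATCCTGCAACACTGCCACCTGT

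The form with the CGRP exon held 85.2% of the Calca TPM in replicate 1 and 90.4% in replicate 2, and the form with the calcitonin exon held 14.8% and 9.57%. In TPM, the CGRP form had 14.8 and 12.8 and the calcitonin form 2.57 and 1.35. The gene had few reads, and the annotated forms end at different sites, so the shares rest on these few counts spread over unlike exons.

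Tac1 transcripts differ by short coding exons, shown here because their use sets which tachykinins the precursor can give. The first exon below is 45 bases long (chr6:7557216-7557260, plus strand) and is absent from the form known as gamma-preprotachykinin. The other is 54 bases long (chr6:7559099-7559152), encodes neurokinin A and is absent from the alpha form, while the beta form has both. Capitals mark the exon, and lower case marks 15 bases of the neighbouring exons on either side.
45-base exon: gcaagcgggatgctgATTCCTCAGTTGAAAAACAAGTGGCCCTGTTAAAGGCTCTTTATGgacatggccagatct
54-base exon: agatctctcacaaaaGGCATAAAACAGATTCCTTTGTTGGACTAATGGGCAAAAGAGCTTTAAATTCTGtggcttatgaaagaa

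Coding transcripts with the 54-base neurokinin A exon held 87.7% of the Tac1 TPM of coding forms that could carry it in replicate 1 and 90.6% in replicate 2. The 45-base exon was used less evenly, with 60.4% and 47.5% of the TPM on transcripts that hold it. The form with both exons was ahead in replicate 1, at 48.0% of the gene's TPM against 39.5% for the form without the 45-base exon. In replicate 2 this order was turned, at 38.1% and 52.4%. With 217 and 262 counts in all on Tac1, the precision of these shares is low.

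Exon use in other members is given as the share of coding TPM that spans the exon. Tau (Mapt) transcripts mostly lacked both 87-base exons of the amino-terminal region, which were on 19.7% and 20.9% of the coding TPM. The 198-base exon of Mapt was on 5.36% and 6.39%. The 3741-base exon that makes the large Map2 protein was on 9.90% and 5.40% of the coding TPM that spans it. An 801-base exon of Ncam1 was on 10.2% and 9.18%, so the form without it led. The 39-base exon of Elavl4 was on 94.9% and 93.0%, and an 81-base exon of Stmn4 on 35.1% and 25.4%. For Snap25, the alternative exons of 118 bases divided as 90.2% and 86.2% for the downstream exon and 9.76% and 13.8% for the upstream exon. The annotated form with the downstream Snap25 exon has a last exon of 1354 bases and the other form 277 bases, so reads from the longer end could be given to the former alone.

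**Figure D2:**
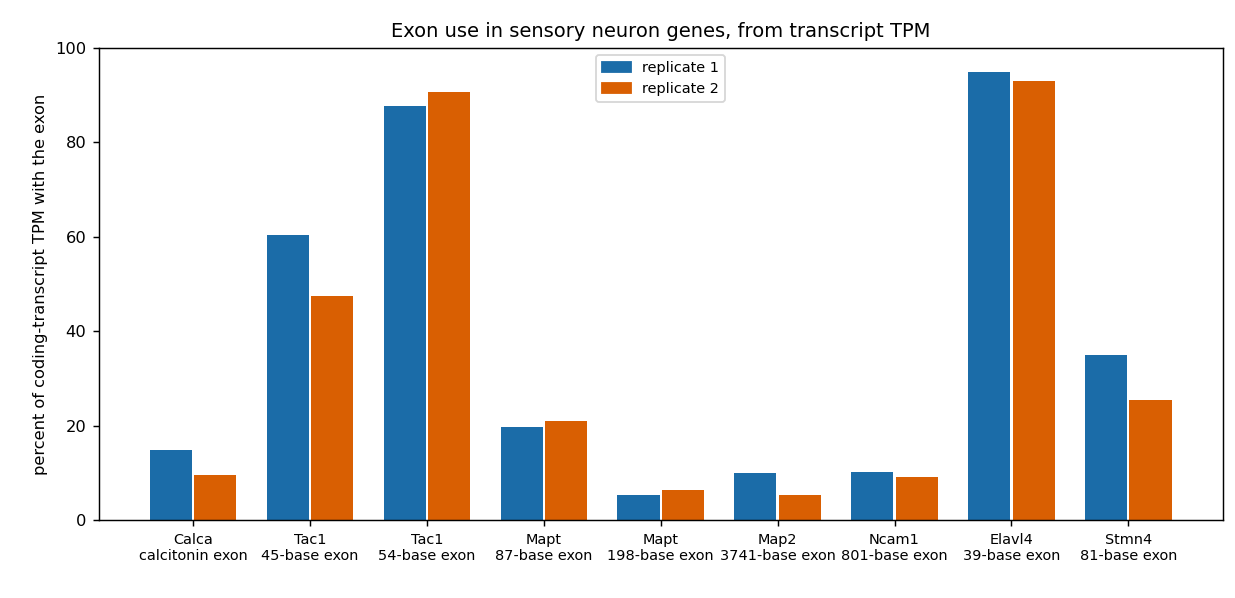
Percent of the TPM of coding transcripts that carried an exon (the share of all Calca TPM for the calcitonin exon), in replicate 1 (left bars) and replicate 2 (right bars). The neurokinin A exon of Tac1 (54 bases) and the 39-base exon of Elavl4 lie between 87.7% and 94.9%, and the 801-base exon of Ncam1, the long Map2 exon and the calcitonin exon are at or below 14.8%.

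Gene levels can include short noncoding transcripts, and for some members these took much of the TPM. Of the 52 genes, 29 had 2 or more annotated transcripts and a mean of 5 TPM or more. In 2 of the 29, Uchl1 and Pou4f1, over 50% of the TPM was on transcripts not annotated as protein coding in both libraries, against 10.2% of 8094 protein-coding genes measured the same way. Uchl1 had 72.6% and 73.8% on a retained-intron transcript of 979 bases, and its coding transcript had 35.7 and 28.0 TPM. Pou4f1 had 66.6% and 67.8% on a noncoding transcript of 799 bases, and its coding transcript of 4445 bases had 5.36 and 4.21 TPM. For Elavl4 the leading transcript was noncoding with 33.1% and 27.7%, and coding transcripts had 30.8 and 24.4 TPM. The leading Piezo2 transcript over both libraries was a nonsense-mediated decay form with 27.7% and 32.8%, though in replicate 1 a coding form of 2849 bases was ahead with 29.4%. Over the 52 genes, the median level on coding transcripts alone was 14.0 TPM.

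Ratios were taken in each library for 30 pairs of genes, some of the same family and others only of the same role. Of these 30, 21 had a mean log2 ratio beyond 1 with the same sign in both libraries. Besides those above, Tubb3 exceeded Tubb4a by 5.11-fold, Isl1 exceeded Pou4f1 by 2.84-fold (log2 1.51, and 2.91 on coding transcripts alone), Map1b exceeded Map2 by 2.87-fold, Nefl exceeded Prph by 3.12-fold and Elavl2 exceeded Elavl3 by 2.69-fold. Isl1 over Isl2 lay at the boundary, with log2 ratios of 0.99 and 1.11, as did Dpysl3 over Crmp1, with 0.95 and 1.23. Tubb2b over Tubb3, with -1.14 and -0.90, and Tubb2b over Tubb2a, with -1.03 and -1.02, also lay there. Pairs within 2-fold on average included Prph and Ina (1.07-fold), Neurog1 and Neurog2, and Map2 and Mapt (1.36-fold). In counts not divided by length, the call differed for 8 pairs, among them Elavl2 over Elavl3 (mean log2 ratio 0.91) and Stmn2 over Stmn3 (1.30).

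**Figure D3:**
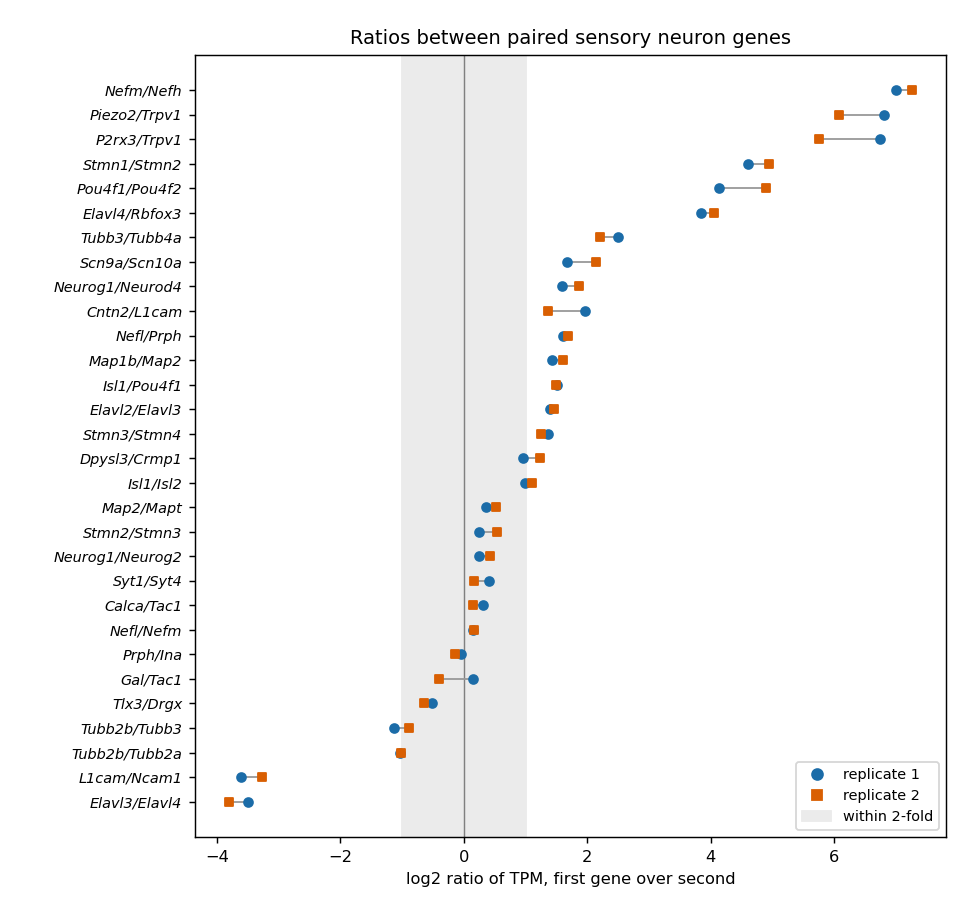
Log2 ratio of TPM for 30 pairs of sensory neuron genes (first gene over second) in replicate 1 (circles) and replicate 2 (squares); the grey band marks ratios within 2-fold. Nefm over Nefh is at the top with 6.99 and 7.25, and Elavl3 over Elavl4 is at the bottom with -3.49 and -3.80.

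The sensory neuron genes were lower in replicate 2 than in replicate 1 almost throughout. Of the 48 genes that averaged at least 1 TPM, 46 were lower in replicate 2, while 48.4% of 13477 protein-coding genes above the same level were lower. The median difference in log2(TPM + 1), replicate 2 minus replicate 1, was -0.30 over these genes and 0.0039 over the protein-coding genes. Of the protein-coding genes, 4.62% were lower in replicate 2 by at least that median. None of the 48 differed by over 2-fold, as did 0.0816% of protein-coding genes toward lower and 0.171% toward higher values in replicate 2. Genes made by the same cells can change together, so the 48 genes were not taken as independent measures of this difference. Which cells the RNA of each gene came from was not tested.

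With 1 TPM added, the difference was widest for Stmn3 (75.7 and 47.2 TPM, log2 difference -0.67), Gal (15.5 and 9.68 TPM, -0.63), Stmn4 (29.6 and 19.9 TPM, -0.55) and Snap25 (9.11 and 5.97 TPM, -0.54). Syp at -0.48, Prph at -0.46 and Tubb3 at -0.45 followed. Without the added 1 TPM the widest of the 48 was Scn10a (1.96 and 1.17 TPM), at 1.68-fold, next to 1.60-fold for Stmn3 and for Gal. For Tubb3 the counts were 5147 and 5323 in libraries that differed 1.43-fold in depth, which gave a log2 count ratio per depth of -0.47 with a 95% interval for counting error of -0.53 to -0.42. For Gal, with 166 and 147 counts, the interval was -1.02 to -0.37.

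By role, the 4 stathmins had a median of -0.46, the 4 intermediate filaments above 1 TPM -0.39, the 4 channels -0.33 and the 5 homeodomain factors -0.31. The 3 proneural factors had -0.30, the 4 peptide and transmitter genes -0.28, the 4 tubulins -0.22 and the 5 adhesion genes -0.04. The 16 transcription factors, channels, peptides and transmitter genes above 1 TPM were all lower in replicate 2, with a median of -0.30.

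The genes were split into 44 taken as mainly neuronal (Tubb4a, also made by glia, among them) and 8 taken as made in other cells too, and the difference was larger over the former. The former summed to 1356 TPM in replicate 1 against 1050 in replicate 2, a 1.29-fold difference, and 39 of their 40 members above 1 TPM were lower, with a median of -0.31. The latter (Stmn1, Tubb2a, Tubb2b, Map1b, Vamp2, Dpysl3, Ncam1 and Isl1) summed to 2787 and 2656 TPM, mostly from Stmn1, a 1.05-fold difference, with a median of -0.08. Of these 8, the log2 difference was most negative for Isl1, at -0.31, and most positive for Vamp2, at 0.0035.

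L1cam was the neuronal gene above 1 TPM that was higher in replicate 2, at 4.85 and 5.99 TPM. Its counts, 303 and 419, gave a log2 ratio per depth of -0.05 with a counting interval of -0.27 to 0.17. Its coding transcripts had 3.13 and 3.12 TPM. A retained-intron transcript of 705 bases held 9.48% of the gene's TPM in replicate 1 and 26.9% in replicate 2, while the coding transcript of 5126 bases held 62.7% and 44.1%. The direction for L1cam therefore differed between the scales.

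**Figure D4:**
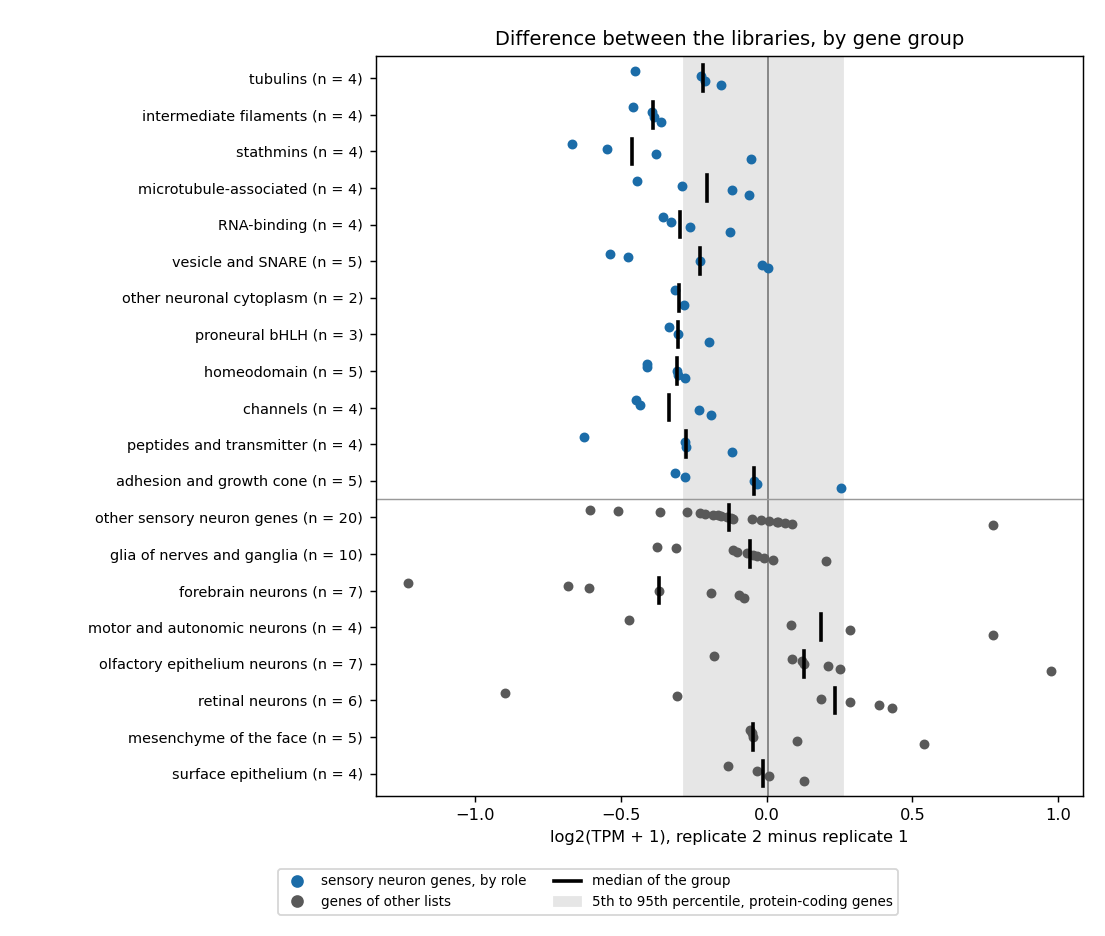
Difference in log2(TPM + 1), replicate 2 minus replicate 1, for genes with a mean of 1 TPM or more; points are genes, black bars group medians, and the grey band the 5th to 95th percentile of protein-coding genes (-0.28 to 0.26). Medians of the 12 roles of sensory neuron genes (upper rows) lie between -0.46 and -0.04; those of olfactory, retinal and motor or autonomic lists lie above 0.

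In a list of 25 further sensory neuron genes, 14 of the 20 above 1 TPM were lower in replicate 2, with a median of -0.13. Sncg, or synuclein gamma, was its highest member at 79.2 and 55.3 TPM. Trpm8 and Mrgprd, channels or receptors of later sensory subtypes, had 0 counts in both libraries.

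Markers of other cells that could bring neuronal RNA are given as measured, and their part in the difference was not tested. Of 7 forebrain genes above 1 TPM out of 12, 7 were lower in replicate 2, with a median of -0.37, and the list summed to 66.0 and 55.8 TPM. Most of that sum was Bcl11b (34.2 and 32.3 TPM) and Emx2 (19.6 and 17.1 TPM), which facial tissue also makes. Tbr1, a factor of cortical neurons, had 1.84 and 0.21 TPM, over 2-fold lower in replicate 2. Without the added 1 TPM, 4 more were over 2-fold lower there, named after their values were seen: Emx1 (2.68-fold, at 0.56 TPM in replicate 2), Gad1 (1.73 and 0.79 TPM), Neurod2 (0.51 and 0.23 TPM) and Eomes (0.53 and 0.07 TPM). Slc32a1 was the lowest at 0.03 and 0.04 TPM, from under 3 counts in each library.

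Glial genes of nerves and ganglia (10 genes, summed 227 and 187 TPM) had a median of -0.06, and 8 of 10 were lower in replicate 2. Fabp7 had 162 and 125 TPM, Erbb3 17.3 and 17.2 TPM, Sox10 17.6 and 16.4 TPM, and Dhh was the lowest at 1.37 and 0.91 TPM. Motor and autonomic genes (10 genes, summed 22.4 and 24.8 TPM) had a median of 0.19 over the 4 above 1 TPM. Ddc (8.95 and 11.1 TPM), Hand2 (5.08 and 5.45 TPM) and Th (5.86 and 3.94 TPM) led that list. Chat, a gene of cholinergic neurons, had 0 counts in both libraries. Slc5a7 and Slc18a3 of the same list, named after their values were seen, had reads. Slc5a7 had 83 and 109 counts (0.94 and 0.87 TPM), and Slc18a3 had 3 and 22 counts (0.07 and 0.38 TPM).

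Olfactory epithelium genes (9 genes, summed 179 and 177 TPM) had a median of 0.13, with 6 of 7 higher in replicate 2. Gap43, which growing axons of all kinds make, had 112 and 98.7 TPM, Ebf2 25.1 TPM on average, Lhx2 15.3 and 18.4 TPM, and Cnga2 was the lowest at 0.12 TPM in each. Retinal genes (8 genes, of which Isl1 and Pou4f2 are also among the sensory neuron genes, summed 87.9 and 78.0 TPM) had a median of 0.24. Atoh7 had 7.59 TPM in replicate 2 and was 1.98-fold higher in replicate 1, Rax 9.42 and 10.9 TPM, and Crx, the lowest, 0.07 and 0 TPM. Genes of facial mesenchyme had a median of -0.05, with Alx1 at 91.9 and 134 TPM and the lowest, Twist1, at 65.8 and 70.8 TPM. Genes of surface epithelium had a median of -0.01, led by Krt14 (99.9 and 91.1 TPM), Krt5 (60.8 and 66.5 TPM) and Epcam (58.3 and 58.6 TPM), with Trp63 the lowest at 21.3 and 20.8 TPM.

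RefSeq promoter sequences (GRCm38.p6) were at hand for 37 of the 52 genes, with 53 promoters in all. The 250 bases before each start were searched on both strands for 6 short motifs. The cAMP response element variant TGACGCAA was in 3 of the 53 promoters, those of Calca, Tac1 and Slc17a6, and in 0.438% of 32851 promoters of the table. The homeodomain motif TAATTA was in 13.2% of the 53 (Dcx, Elavl4, Neurog1, Slc17a6 and Tac1) against 4.84% of all, and the E-box CAGATG in 18.9% against 14.4%. The E-box CAGCTG was in 13.2% against 13.0%, the full element TGACGTCA in 3.77% against 1.55%, and CAGCACC, part of the element bound by the neuronal repressor REST, in 3.77% against 5.73%. A match is a run of letters and not a shown site.

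The Calca and Tac1 promoters are printed because both peptide genes carry the same response element variant, in capitals. The Calca line is the 250 bases before the start on the minus strand (chr7:114636358-114636607), with 57 bases between the motif and the start. The Tac1 line is plus strand (chr6:7554811-7554878) and stops at the first base annotated as transcribed in GENCODE M21. There the motif is on the opposite strand and its end lies 192 bases before the RefSeq start.
Calca: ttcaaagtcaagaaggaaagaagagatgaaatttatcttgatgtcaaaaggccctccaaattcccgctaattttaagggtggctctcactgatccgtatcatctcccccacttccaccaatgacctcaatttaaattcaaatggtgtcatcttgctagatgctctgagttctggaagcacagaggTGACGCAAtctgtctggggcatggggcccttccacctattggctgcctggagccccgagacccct
Tac1: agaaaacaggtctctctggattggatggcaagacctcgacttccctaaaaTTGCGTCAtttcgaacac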

How the data were processed

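Total RNA was sequenced from 2 pools of embryos of 1 group. The tables were made by the authors from reads aligned to mm10 with GENCODE M4, per the deposited notes; by its title the series has since been superseded, and these are the earlier tables; which aligner and quantifier they used is not given in the sources used here. The deposited expected counts are estimated reads per gene or transcript, shared out where a read matches several. The authors' deposited TPM divides them by effective length, which was 99 bases under the length for genes with 1 transcript, and includes 96 ERCC spike-ins (6.88% and 7.57% of TPM). Deposited FPKM and posterior mean TPM were used as alternatives, and transcript shares were computed from transcript TPM, not from the deposited percent column. Symbols, exons and transcript types came from GENCODE M21 on the same build, which held 42462 of the 43346 mouse gene IDs, and promoters from RefSeq.

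Genes were read from the gene tables by ID and transcripts from the transcript tables, on a log2(TPM + 1) scale for differences. A mean of 1 TPM was required for differences, and a transcript share required 5 TPM. Overlapping sequence was counted as identical 100-base windows of M21 transcripts on either strand. TMM and RLE factors came from edgeR 4.0.16 under R 4.3.3 on expected counts rounded to whole numbers, and other steps used Python 3.11.15, numpy 2.4.6 and pandas 2.3.3. Every gene of the list is named by role; of each other list the 3 highest, the lowest and any over 2-fold apart are named, except for a few that are not reported here. The genes and lists were chosen with earlier results of these data known. Alternatives were other units, scalings, pseudocounts and minimums, each library alone, and coding transcripts or mainly neuronal genes only, the last 2 chosen after seeing the data.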

Additional observations from a re-analysis of the deposited data

How the results depend on the processing

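The median level over the 52 genes depended on the unit: 10.1 in FPKM, 25.3 in CPM and 14.0 TPM on coding transcripts alone, against 16.2 TPM. CPM, counts scaled to library depth, is not divided by length, and FPKM is scaled to another total. With either library left out this median was 14.8 or 17.6 TPM. The number of genes at the level of 1 ranged from 46 to 49 under the alternatives, thresholds of 0.5 and 2 TPM included. The median log2 difference between the libraries ranged from -0.22 with a pseudocount of 5 to -0.33 in CPM, and 0 genes differed over 2-fold under each alternative, all of which add to the value before the log. With nothing added, Pou4f2 (2.09-fold) and Phox2a, both under 1 TPM, were over 2-fold apart. Of 30 ratios, 19 to 21 were called. Vamp2, L1cam, Trpv1, Ncam1 and Dcx changed direction under some settings, with differences near 0 apart from L1cam (0.26 in TPM, -0.05 in CPM).

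A difference between 2 libraries could not be recomputed with either left out. No paired analysis was possible because there is 1 group. Depth limits what can be said of Phox2a and Trpv1, with at most 15 counts in a library.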
